A study of Mus musculus with 4 samples.

Results

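RNA polymerase II (Pol II) transcribes the protein-coding genes, and it starts at a promoter only together with the general transcription factors and, at most genes, the Mediator complex. The genes described here encode this machinery. They were taken from the deposited gene table by name: protein-coding genes called Polr2a to Polr2m (Pol II subunits), Gtf2a to Gtf2h with a number (TFIIA, TFIIB, TFIIE, TFIIF and TFIIH), Med with a number (Mediator), Tbp and the TAF genes Taf1 to Taf8, Taf11 and Taf13 (TFIID). Of 54146 genes in the table, 66 matched. Genes on the distal stretches of chromosomes 14 and 17 were left out by the rule, which removed 2 (Med4 and Gtf2f2, both on chromosome 14). This left 64 genes, of which 63 passed the filter on low counts and 1 (Med20) was at 0 in all libraries.

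The data are libraries of nascent RNA (TT-seq) from mouse embryonic stem (ES) cells in LIF and serum. RNA made while the cells took up 4-thiouridine was purified, so the counts reflect recent transcription more than the RNA pool; the labels give polyA RNA as the molecule but describe a total RNA kit used without ribosomal depletion. There were 2 libraries labelled Supt3 WT and 2 labelled Supt3 KO, and S. pombe labelled RNA had been added to all 4 as a spike-in. Supt3 encodes a subunit of SAGA, a coactivator complex that carries histone acetyltransferase activity and shares some TAF subunits with TFIID. The allele, the clone and the origin of the cells are not given in the labels, and they do not state that replicates were grown separately. Each p-value is therefore a measure of library-to-library spread, possibly only technical.

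In the usual order of assembly, TFIID, which holds the TATA-binding protein TBP and the TAF proteins, binds the promoter with TFIIA and TFIIB. Pol II then arrives with TFIIF, and TFIIE and TFIIH complete the complex and open the DNA. Mediator bridges activators and Pol II, and its separable kinase module holds Cdk8 or Cdk19 with cyclin C, Med12 or Med12l, and Med13 or Med13l.

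The sequences before the start sites are shown for 6 genes on which the results below turn: the gene of the largest Pol II subunit, Tbp, the member with the lowest fold change (Polr2e), a Mediator gene with little spread between libraries (Med7), the called member (Med12l) and its paralog (Med12). Each is the 150 bases before the RefSeq start, 5′ to 3′ on the strand of the gene, from GRCm38.p6, the same assembly as mm10. Capitals mark matches on either strand to any of 4 motifs, which may overlap. The core promoter element known as the TATA box was searched as TATAAA. The GC box, to which Sp factors bind, was searched as GGGCGG. The motif that transcription factors of the ETS family recognise was searched as CCGGAAG. The last was the pentamer CCAAT, bound by the factor NF-Y.
Polr2a: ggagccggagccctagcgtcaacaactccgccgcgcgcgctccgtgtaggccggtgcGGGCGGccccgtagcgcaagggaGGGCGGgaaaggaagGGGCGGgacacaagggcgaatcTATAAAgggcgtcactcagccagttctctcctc
Tbp: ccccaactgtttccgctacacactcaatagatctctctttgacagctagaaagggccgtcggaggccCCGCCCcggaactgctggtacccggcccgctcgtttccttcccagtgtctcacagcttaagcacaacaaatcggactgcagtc
Polr2e: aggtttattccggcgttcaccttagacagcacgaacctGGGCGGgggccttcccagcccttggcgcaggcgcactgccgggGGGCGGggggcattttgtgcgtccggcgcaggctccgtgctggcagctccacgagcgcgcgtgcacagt
Med7: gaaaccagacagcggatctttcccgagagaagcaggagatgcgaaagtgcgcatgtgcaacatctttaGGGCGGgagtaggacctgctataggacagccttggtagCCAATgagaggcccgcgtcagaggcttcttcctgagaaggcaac
Med12l: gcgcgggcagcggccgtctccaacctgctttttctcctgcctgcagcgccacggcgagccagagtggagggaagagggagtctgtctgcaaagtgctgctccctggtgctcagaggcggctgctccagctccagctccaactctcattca
Med12: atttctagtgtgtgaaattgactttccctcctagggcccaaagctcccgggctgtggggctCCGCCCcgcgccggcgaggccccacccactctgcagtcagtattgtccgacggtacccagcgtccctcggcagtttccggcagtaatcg

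These windows are chr11:69758634-69758783 on the minus strand for Polr2a, chr17:15499738-15499887 on the plus strand for Tbp, chr10:80039660-80039809 on the minus strand for Polr2e and chr11:46436797-46436946 on the plus strand for Med7. That of Med12l is chr3:59006828-59006977 and that of Med12 chrX:101273941-101274090, both on the plus strand. The RefSeq start lies inside the gene as deposited by 1153 bases for Med12l, 136 for Polr2e, 61 for Med12, 22 for Med7 and 4 for Polr2a. For Tbp the 2 starts are the same. The Med12l window therefore lies wholly inside the deposited gene, and so do both GC boxes of the Polr2e window. Med7 has 2 RefSeq starts, and the one nearest the deposited 5′ end was used. Polr2a had a TATAAA whose first base is 33 bases before the start, along with 3 GC boxes. Polr2e had 2 GC boxes, Tbp, Med7 and Med12 had 1 each, Med7 also had a CCAAT, and the Med12l window held none of the 4 motifs.

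A window was found for 54 of the 64 genes, 1 per gene. A GC box was in 59.3% of them, against 51.6% of 11907 tested genes with a window and 35.2% of all 20309 genes with one. The ETS motif was in 16.7% of the members' windows, against 10.6% and 6.95%, and CCAAT in 24.1% against 28.0% and 26.4%. TATAAA was in 4 of the 54 windows (7.41%, against 3.58% and 7.56%). On the strand of the gene and lying wholly within 40 to 16 bases before the start, it was in 2 (3.70%, against 1.18% of tested genes and 2.56% of all). The median GC content was 62.7% in both the members and the tested genes. A match is a description of letters, not a bound site.

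Libraries held between 13.1 M and 19.4 M mouse counts (M, 1000000 counts). Levels below are counts per 1000000 mouse counts (CPM), scaled with TMM factors (a trimmed mean of log ratios), and differences are log2 fold changes of KO over WT in edgeR. In Supt3 itself the level was 147, 158, 123 and 140 CPM in WT replicates 1 and 2 and KO replicates 1 and 2, a log2 fold change of -0.22; the labels do not say which part of the gene the allele removes, so this level is no check of the label KO. Of 10 ES cell markers 9 were counted in all libraries, with a summed level of 2139 to 2159 CPM in WT against 1469 to 1735 CPM in KO, and 2 of them were lower in KO. Sox2, the tenth, was at 0 in every library, and it lies inside the Sox2ot gene on the same strand. The 10 primitive endoderm markers summed to 436 to 493 CPM in WT against 920 to 1179 CPM in KO, and 8 were higher. The part of these markers in the values below was not tested, and in bulk RNA fewer cells of a type cannot be told apart from less RNA per cell. The 10 markers of feeder fibroblasts summed to 43.2 to 54.1 CPM in WT against 41.8 to 53.8 CPM in KO, mostly Vim; 6 of them were under 1 CPM.

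Of the 63 machinery genes tested, 1 (Med12l, of the Mediator kinase module) was higher in KO, none was lower, and the other 62 did not pass edgeR's quasi-likelihood test at a Benjamini-Hochberg adjusted p under 0.05. Over all 16789 genes tested 8.07% were called, 4.05% higher and 4.02% lower, and over the 10096 protein-coding genes in the same range of CPM as the members 9.41%. At an unadjusted p under 0.05 there were 5 members (Med12l, Med15, Taf7, Med7 and Polr2e; 7.94%), against 22.9% of all tested genes. The median log2 fold change of the members was 0.03, with quartiles of -0.05 and 0.13, beside a median of 0.01 and quartiles of -0.20 and 0.19 over all tested genes. All fitted values lay between -0.42 (Polr2e) and 0.39 (Med12l), and 53 of the 63 were within 0.20 of no change.

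**Figure D1:**
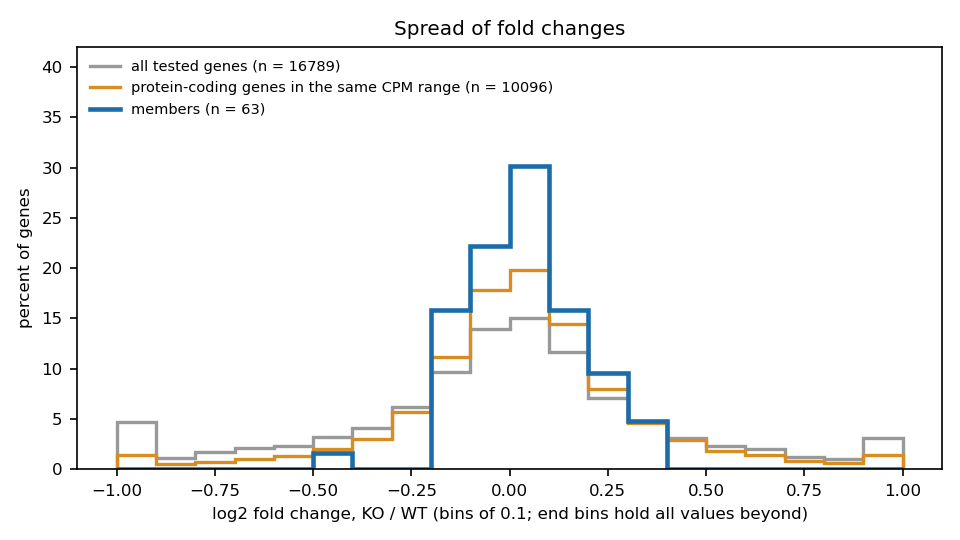
Percent of genes (vertical axis) by log2 fold change of KO over WT in bins of 0.1 (horizontal axis) for the 63 members, all 16789 tested genes and the 10096 protein-coding genes in the members' range of CPM; the end bins also hold the values beyond them. The members' outline ends at -0.5 and 0.4, the edges of the bins that hold their extreme values of -0.42 and 0.39. The other outlines reach both ends of the axis.

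The median standard error was 0.11, and the 95% interval lay within a 1.5-fold change either way for 56 of the 63 members (88.9%, against 46.9% of all tested genes and 72.8% of the protein-coding genes in the same CPM range). It lay within a 2-fold change for all 63, as it did for 71.7% of all tested genes. Both KO libraries were on one side of both WT libraries in 24 members (38.1%, against 52.7% of all tested genes), above in 12 (26.7% of all genes) and below in 12 (26.0%). For 46 members the difference between genotype means was smaller than the larger of the gaps between 2 libraries of one genotype. The same share over all genes was not computed, so this count cannot be read as particular to the members.

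**Figure D2:**
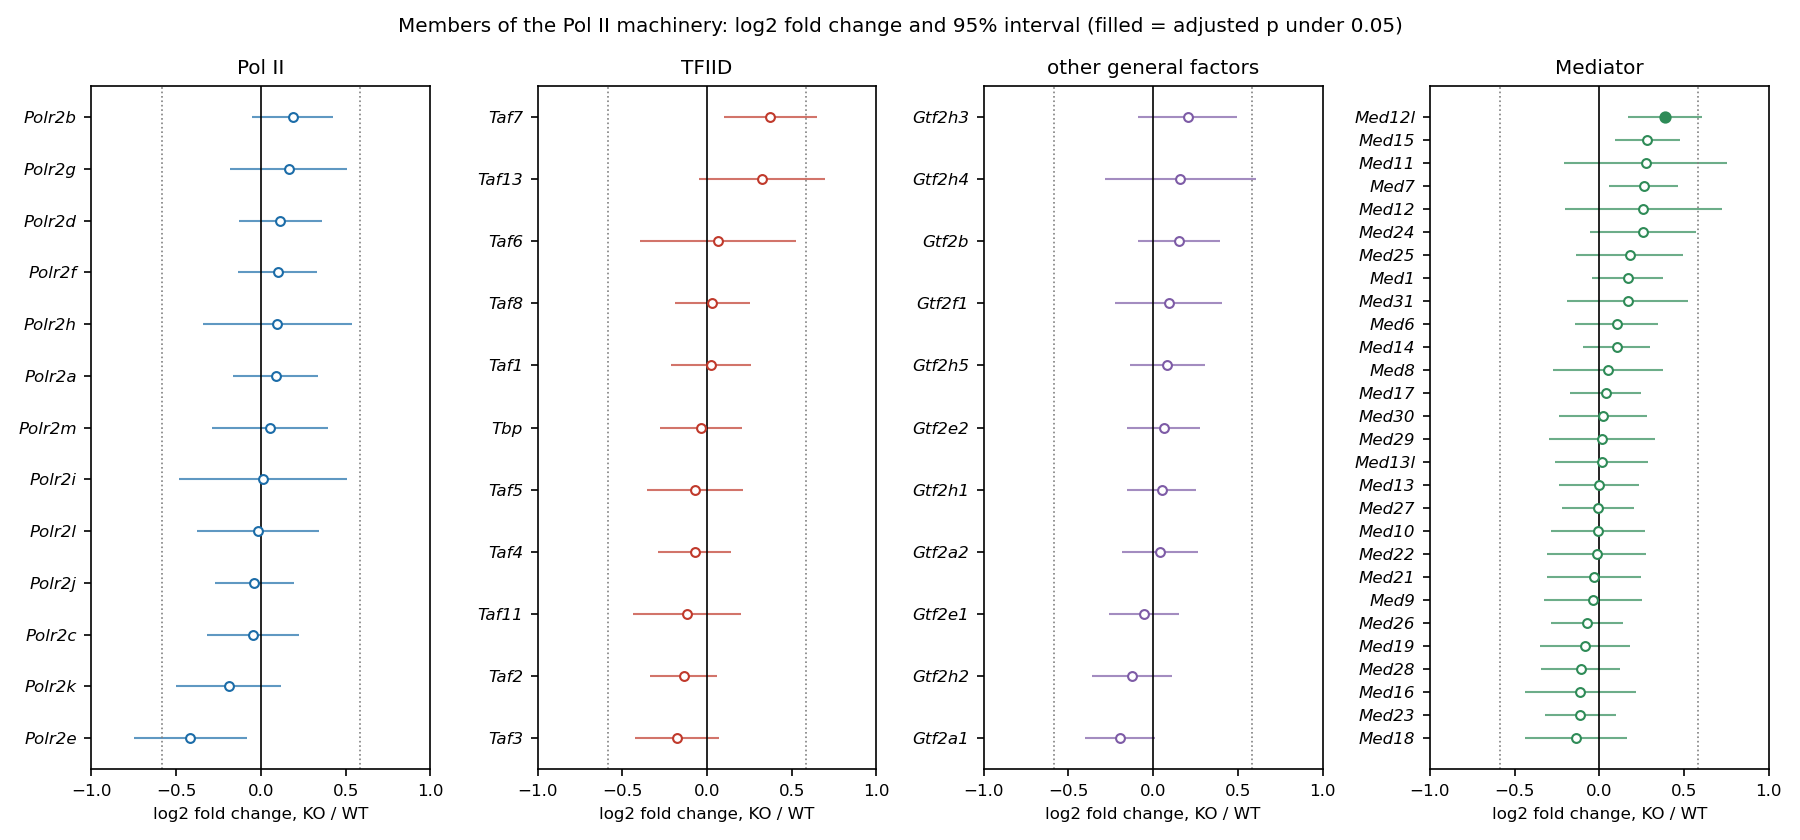
Log2 fold change of KO over WT (horizontal axis) with its 95% interval for the 63 tested members, in a panel per complex; dotted lines mark a 1.5-fold change and a filled point an adjusted p under 0.05. Med12l is the filled point, and Polr2e is the lowest.

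All 13 Polr2 genes were tested, and none was called. Polr2a, which encodes the largest subunit with the catalytic site and the repeated tail that kinases phosphorylate, stood at 220 and 202 CPM in the WT libraries and 242 and 205.5 CPM in those of KO. The genotypes overlapped, and the log2 fold change was 0.09 ± 0.11 (SE), with a 95% interval from -0.16 to 0.34. Polr2b, the second-largest subunit and the other side of the active site, stood at 165 and 148 (WT) and 189 and 167 CPM (KO). Both KO libraries were above both WT libraries, KO replicate 2 only just above WT replicate 1, and the change of 0.19 ± 0.10 did not pass (edgeR adjusted p = 0.336). The stalk genes Polr2d and Polr2g had log2 fold changes of 0.12 and 0.16, with overlapping libraries.

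Polr2e, a subunit shared by all 3 nuclear RNA polymerases, had the lowest value of all members. Its level was 36.2 and 28.6 CPM in the WT libraries and 26.4 and 22.2 CPM in those of KO. Both KO libraries were below both WT libraries, and the WT libraries differed more from each other than WT replicate 2 did from KO replicate 1. The log2 fold change was -0.42 ± 0.15 (95% interval -0.75 to -0.08), and it did not pass over all genes (edgeR adjusted p = 0.131; 0.0205 unadjusted). The difference was -0.46 between the 2 libraries with fewer counted reads and -0.37 between the 2 with more. It passed without KO replicate 1 (-0.54, edgeR adjusted p = 0.00586) and without WT replicate 2 (-0.58, edgeR adjusted p = 0.0411), and stood at -0.25 without WT replicate 1. It also passed without the filter on low counts (edgeR adjusted p = 0.0483) and with a term for the pairs of like depth (edgeR adjusted p = 0.000715). The fit with that term called 25.7% of all tested genes. Polr2e did not pass with RLE factors, another scaling (edgeR adjusted p = 0.116), in limma voom (adjusted p = 0.141) or in DESeq2 (adjusted p = 0.208). Nor did it pass with a filter at a mean of 2 CPM (edgeR adjusted p = 0.133) or with spike-in scaling. In all it passed in 4 of 11 alternative fits.

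The other 4 genes of shared subunits had values closer to 0. Polr2f was at 0.10 ± 0.10, Polr2h at 0.10 ± 0.19, Polr2l at -0.02 ± 0.16 and Polr2k at -0.19 ± 0.14 on the log2 scale of fold change. None of them passed the test. Polr2k stood at 14.9 and 16.02 (WT) and 13.5 and 13.7 CPM (KO), so its libraries did not overlap either. Whether Polr2e differs from the other shared subunits was not tested.

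TFIID opens the assembly, and none of its 11 genes was called. Tbp, whose protein binds the TATA box and bends the DNA, stood at 92.6 and 99.7 CPM in the WT libraries and 85.4 and 102 CPM in those of KO. The KO libraries lay on either side of the WT pair, with a log2 fold change of -0.04 ± 0.11 (95% interval -0.28 to 0.20). Taf1, the largest TAF and a scaffold of the complex, stood at 86.6 and 102 (WT) and 93.0 and 99.3 CPM (KO), a fold change of 0.03 ± 0.10 on the log2 scale. The KO values of Taf1 lay between those of WT. Taf4, a histone-fold TAF, stood at 169 and 176 (WT) and 155 and 172 CPM (KO), a log2 fold change of -0.07 ± 0.10.

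Among the TAF genes the highest and lowest fold changes were those of Taf7 and Taf3. Taf7, which binds Taf1, stood at 40.5 and 37.0 CPM in the WT libraries and 55.3 and 45.3 CPM in those of KO, all KO above all WT. The log2 fold change was 0.37 ± 0.12 and did not pass (edgeR adjusted p = 0.103; 0.0133 unadjusted), and it ranged from 0.23 without KO replicate 1 to 0.52 without KO replicate 2, where it passed (edgeR adjusted p = 0.00191). Taf7 also passed without the low-count filter (edgeR adjusted p = 0.0337) and with the depth-pair term (edgeR adjusted p = 0.000388). In all it passed in 3 of 11 alternative fits. Taf7 lies wholly across from the gene models Gm42416, Gm37013 and Gm37388 on the opposite strand. These cover one another, so their 0 counts in all 4 libraries say nothing of transcription on that strand. Taf3, which carries a PHD finger that reads trimethylated lysine on histone H3, stood at 218 and 221 (WT) and 176 and 212 CPM (KO). The fold change (log2) of Taf3 was -0.18 ± 0.11. It stood at -0.05 without KO replicate 1, and at -0.32 without KO replicate 2, where it passed (edgeR adjusted p = 0.0454). Taf13 stood at 16.2 and 20.2 CPM in the WT libraries and 25.8 and 20.2 CPM in those of KO (log2 fold change 0.33 ± 0.16). WT replicate 2 and KO replicate 2 of Taf13 were almost level, with WT replicate 1 below and KO replicate 1 above them.

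The remaining general factors held 11 tested genes and no call. TFIIA stabilizes TBP on DNA, and its large-subunit gene Gtf2a1 had the lowest value here, with 105 and 111 CPM in WT against 89.8 and 99.0 CPM in KO (log2 fold change -0.20 ± 0.09, edgeR adjusted p = 0.248). Its partner Gtf2a2 was at 0.04 ± 0.10. Gtf2b, the gene of TFIIB, which links TBP to Pol II, was at 0.15 ± 0.11. Of the TFIIE genes, Gtf2e2 stood at 126 and 136 (WT) and 130 and 143 CPM (KO) (0.06 ± 0.10) and Gtf2e1 was at -0.05, with Gtf2f1 of TFIIF at 0.09 ± 0.14.

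TFIIH opens the promoter DNA and phosphorylates the Pol II tail. Its most abundant member gene was Gtf2h1, with 130 and 140 CPM in the WT libraries and 138 and 142 CPM in those of KO (0.05 ± 0.09), and the highest fold change was that of Gtf2h3, with 36.0 and 31.8 (WT) and 42.9 and 35.2 CPM (KO) (0.20 ± 0.13). The WT libraries had 38.6 and 37.1 CPM of Gtf2h5 and the KO libraries 40.4 and 39.9 CPM, a difference of 0.08 ± 0.10 on the log2 scale.

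The 2 genes that the choice by chromosome position removed belong to the same complexes. Gtf2f2, the second TFIIF gene, spans chromosome 14 from 75896937 to 76010865 and stood at 378 and 404 CPM in the WT libraries and 540 and 640 CPM in those of KO (log2 fold change 0.59 ± 0.12). Med4, a Mediator middle subunit, spans chromosome 14 from 73510025 to 73518849 and stood at 48.1 and 49.1 (WT) and 67.9 and 72.5 CPM (KO) (0.53 ± 0.09). These values come from the stretch that defined the exclusion and are given as a description. The partner of Gtf2f2 in TFIIF, Gtf2f1 on chromosome 17, had overlapping libraries.

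**Figure D3:**
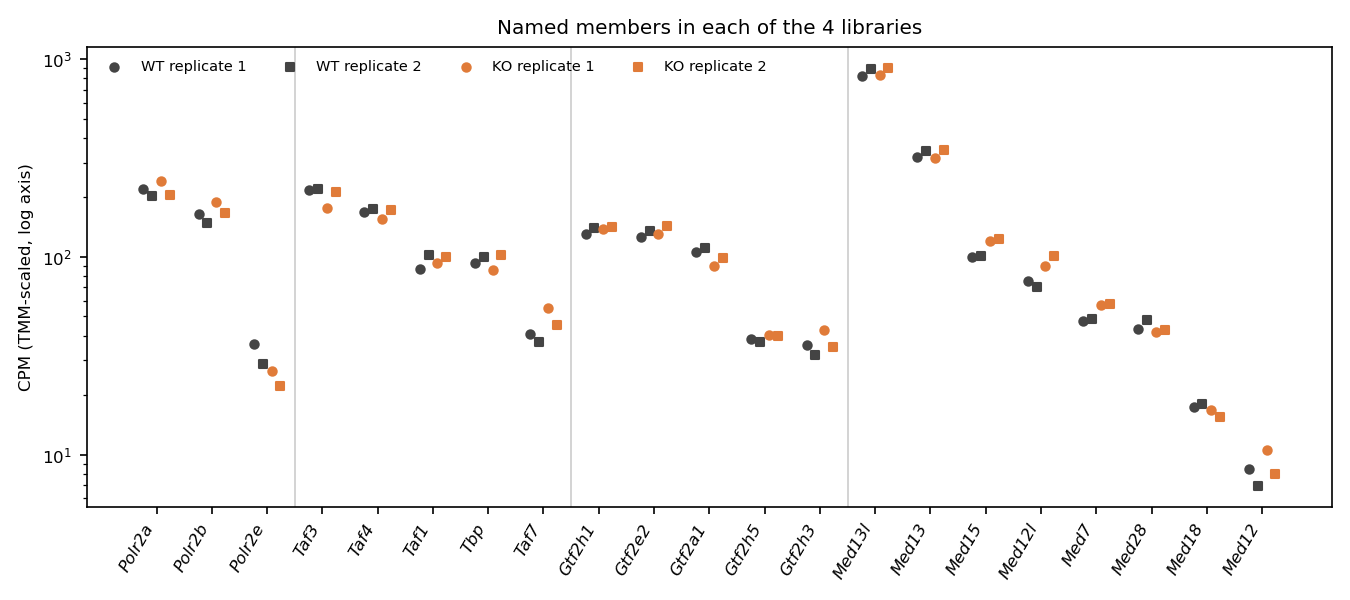
CPM on a log axis (vertical) of the 21 members named by rule, in each library (WT dark grey, KO orange; circles replicate 1, squares replicate 2), ordered by complex. The genotypes overlap in 10 of the 21. Both KO points are above both WT points in 6, among them Med15, Med7 and Med12l, against 26.7% of all tested genes. Both are below in 5, among them Polr2e, against 26.0%. The rule took some of the 21 for their fold change or p-value, so these counts do not stand for all members.

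Mediator had 29 genes, of which 28 were tested and 1 was called. By module, no gene of the head (6 tested), middle (8), tail (9) or of Med14, the backbone that joins them, was called. Med12l, a paralog of Med12 in the kinase module, rose from 75.7 and 70.3 CPM in WT to 90.1 and 101 CPM in KO. Both KO libraries were above both WT libraries. The log2 fold change was 0.39 ± 0.10 (95% interval 0.17 to 0.61, edgeR adjusted p = 0.0432), with 0.25 between the libraries with fewer counted reads and 0.52 between those with more. The call was lost in DESeq2 (log2 fold change 0.38), with spike-in scaling (0.19), and without WT replicate 1 (0.44), WT replicate 2 (0.34) or KO replicate 2 (0.31), with the edgeR adjusted p reaching 0.312 among the fits that leave out a library.

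Med12l spans 313 kb of chromosome 3 (59005825 to 59318682), and 36.2% of it lies across from genes on the opposite strand. Of those named here, P2ry12, P2ry13 and Gpr171 had 0 counts in every library and P2ry14 had 2 to 6. Igsf10, which overlaps the end of Med12l, had 88 and 122 counts in WT and 137 and 131 in KO. The paralog Med12 stood at 8.49 and 6.94 CPM in the WT libraries and 10.5 and 7.95 CPM in those of KO, with overlapping libraries and a log2 fold change of 0.26 ± 0.20. Leaving out 1 library moved the value of Med12 between 0.05 and 0.46, and with the spike-in it was 0.0086. Med13, which tethers the kinase module to Mediator, stood at 318 and 343 (WT) and 316 and 346 CPM (KO) (0.00 ± 0.10), and Med13l at 822 and 892 CPM in the WT libraries and 829 and 903 CPM in those of KO (0.02 ± 0.12). In both genes, replicate 2 of each genotype was above replicate 1 of both.

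The Mediator genes Med15 and Med7 had the smallest gaps between libraries of a genotype among the members with an unadjusted p under 0.05. Med15, a tail subunit that activators contact, stood at 99.8 and 100.5 (WT) and 121 and 123 CPM (KO), a log2 fold change of 0.28 ± 0.08 (edgeR adjusted p = 0.0787; 0.00845 unadjusted). Med7, a middle subunit, stood at 47.6 and 48.4 CPM in the WT libraries and 57.1 and 58.0 CPM in those of KO, a fold change of 0.26 ± 0.09 on the log2 scale (edgeR adjusted p = 0.124; 0.0186 unadjusted). In both, the 2 KO libraries lay clear of the 2 WT libraries, and neither passed over all genes. With a term for the depth pairs both did (edgeR adjusted p = 0.000653 for Med15 and 0.0118 for Med7). That fit called 25.7% of all tested genes. The lincRNA 2310031A07Rik, across from 40.7% of Med7, had 0 counts except for 3 in KO replicate 1. The lowest values in Mediator were those of the head subunit Med18 (17.3 and 18.1 CPM in WT against 16.9 and 15.4 CPM in KO, -0.14 ± 0.13) and of Med23, Med16 and Med28, each at -0.11. Med28 stood at 43.2 and 48.0 (WT) and 41.8 and 42.8 CPM (KO), with both KO libraries below both WT libraries.

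Med20, a head subunit, was listed at 0 counts in all 4 libraries. The gene spans chromosome 17 from 47611582 to 47624418, and 99.9% of it lies inside Gm20517, a longer protein-coding model on the same strand, which had 153 and 260 counts in WT and 203 and 291 in KO. Across the table, all 177 genes that lie inside a counted gene on the same strand, with their exons apart from its exons, had 0 counts. Of 492 such genes inside a gene on the opposite strand, 25.8% had 0 counts, as did 25.8% of the 15734 genes that touch no other gene. The counts therefore cover whole gene spans with introns, use strand and leave out reads that fall in overlapping genes, and the 0 of Med20 says nothing of its transcription. Polr2m, whose product associates with Pol II, shares 88.2% of its span with Gcom1 on the same strand, so its 23.6 to 31.0 CPM come from the 0.888 kb left.

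Because introns were counted, levels of different genes are given per kb of gene span. Over 12677 protein-coding genes with at least 100 counts, the total count had a Spearman rho of 0.35 with span and 0.36 with exon length. The order of genes below therefore depends on the length chosen. The median over the 63 members was 2.95 CPM per kb, with 4.31 for the Pol II genes, 2.95 for the general factors other than TFIID, 2.56 for Mediator and 1.89 for TFIID. These medians hold Polr2m at its whole span, where it had 3.57 CPM per kb. Over the 0.888 kb that no gene on the same strand covers, it had 30.1. With that length for every member, a choice made after seeing the data, the Pol II median was 4.84 and the other medians were the same. Apart from Polr2m, the highest were Taf7 (11.99 CPM per kb, mean of the 4 libraries), Med7 (9.10), Polr2a (8.82) and Polr2e (7.37). Polr2a stood at 8.56 ± 0.51 in WT and 9.09 ± 1.06 in KO, and Polr2b at 3.99 ± 0.32 and 4.54 ± 0.40 CPM per kb (SD, n = 2). Per kb of exon the order was another: Taf7 moved from rank 1 to 27 and Med12l from 63 to 46.

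The kinase module genes lay far apart in level. Med13l and Med13 had 4.21 and 3.65 CPM per kb, whereas Med12 and Med12l were the lowest of the 63, at 0.36 and 0.27 CPM per kb. For Med12l these were 0.23 ± 0.01 in WT and 0.31 ± 0.02 in KO, and for Med12 0.33 ± 0.05 and 0.39 ± 0.08 (SD, n = 2). In every library the Med12 level per kb of span was above that of Med12l, whereas per kb of exon the order was the reverse, with Med12l at rank 46 and Med12 at rank 63. Next above them were Med16 (0.85 CPM per kb) and Med24 (1.14).

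**Figure D4:**
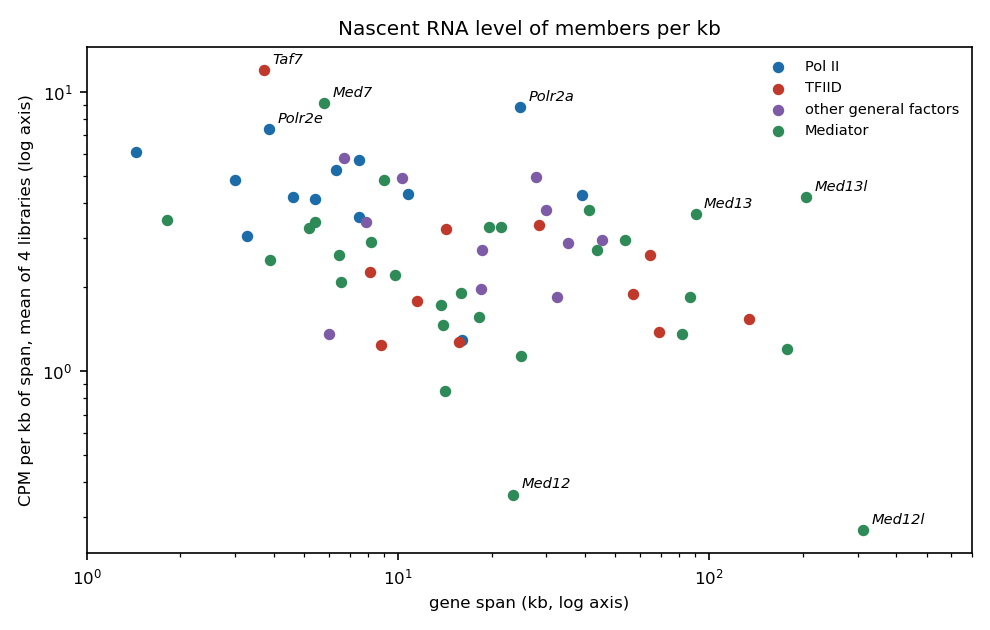
Mean CPM per kb of gene span over the 4 libraries (vertical log axis) against gene span in kb (horizontal log axis) for the 63 tested members, coloured by complex. Med12 and Med12l stand below all others at 0.36 and 0.27, and Taf7, Med7, Polr2a and Polr2e are at the top; Polr2m is drawn at its whole span.

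Other genes of the machinery, taken from lists and lying outside the chromosome stretches, were counted as well. Over all tested genes 8.07% were called, so a list of a few genes can hold no call without differing from the rest. None was called among the 5 further TFIIH genes (median log2 fold change -0.10), the kinase partners Cdk8, Cdk19 and Ccnc of Mediator (-0.02), 8 tested other TAFs and TBP relatives (0.01) or 13 Integrator genes (-0.05). The most abundant of each were Mnat1, Cdk8, Taf15 and Ints6, with fold changes of 0.02, -0.02, -0.06 and -0.08 on the log2 scale. Of 30 tested genes of pausing and elongation, Aff1 was lower and none was higher (median 0.04). Aff1, a scaffold of the super elongation complex, fell from 333 and 340 CPM in WT to 157 and 212 CPM in KO (-0.87 ± 0.14, edgeR adjusted p = 0.00824). Both KO libraries of Aff1 were below both WT libraries. Of 14 tested genes of the RNA polymerase I and III subunits, Polr1d, shared by both enzymes, was higher (175 and 173 CPM in WT, 225 and 240 CPM in KO, 0.42 ± 0.09, edgeR adjusted p = 0.0271) and none was lower (median 0.07). Taf9 and Ell3 were at 0 counts in every library, inside Ak6 and Serinc4 on the same strand.

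With the S. pombe spike-in as the scale, values of the members and of all genes were lower. The median of all tested genes shifted from 0.01 to -0.23 on the log2 scale and that of the members from 0.03 to -0.21. On that scale the test called 0 of the 63 members, with 0 at an unadjusted p under 0.05, and 0.101% of all tested genes (0.00596% higher, 0.0953% lower). The SE was larger there, 0.73 for Med12l against 0.10 with TMM factors. The absence of calls on the spike-in scale therefore says little about the members. The mouse counts per S. pombe count were 3.25 and 5.604 in WT and 2.71 and 4.86 in KO, a larger gap between the libraries of a genotype than between genotypes. KO was below WT both in the libraries with fewer counted reads and in those with more. In the authors' deposited table, 0 of the 63 members had an adjusted p under 0.05, beside only 8 of all 29514 genes with a deposited p. Of the members 57 had a negative value, and their median of -0.15 was beside -0.16 over the tested genes. The share of all genes with a negative value was not computed.

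The libraries also differed within a genotype. Replicate 2 of each genotype had more counted reads, and the log2 difference of replicate 2 from replicate 1 in WT and in KO had a Pearson r of 0.46 and a Spearman rho of 0.50 over the 63 members, which share these libraries and their depth. Over 16777 genes these were 0.24 and 0.33. Of the 63 members 26 were lower in replicate 2 of both genotypes, beside 5679 of the 16777 genes. They were 14 of the 25 members under 10 kb and 12 of the 38 longer ones. The split by length was not made over all genes, so it cannot be read as particular to the members. The median size of the difference between replicates was 0.10 in WT and 0.14 in KO, beside 0.09 for the difference between genotypes. Over 16777 genes these values were 0.15, 0.20 and 0.20. A difference between replicates compares single libraries and that between genotypes compares pairs of libraries, so the sizes are not like measures. With a term for the 2 depth pairs, which leaves 1 residual degree of freedom, 9 members were called, against 25.7% of all tested genes. The 6 higher were Med12l, Taf7, Med15, Med7, Taf13 and Polr2b (13.2% of all genes), and the 3 lower were Polr2e, Gtf2a1 and Taf3 (12.5%).

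**Figure D5:**
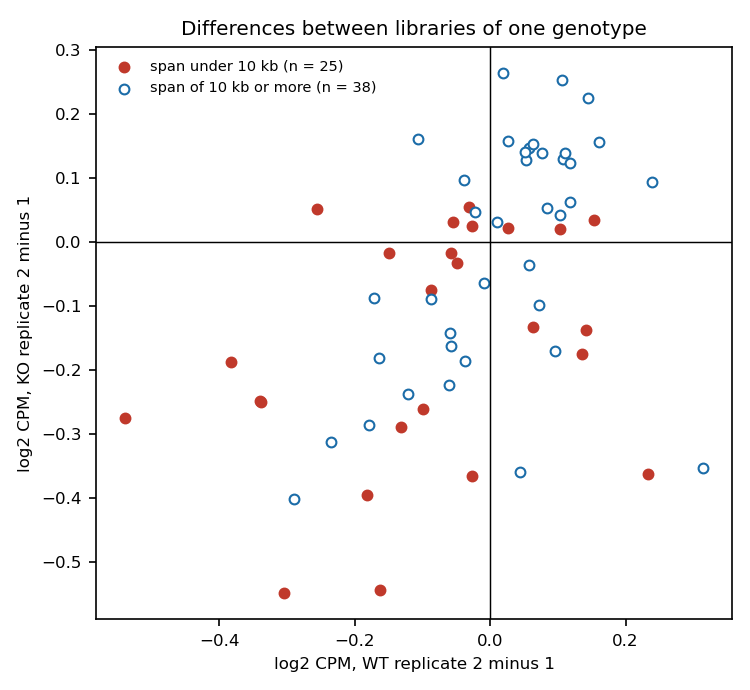
Log2 difference of replicate 2 from replicate 1 in KO (vertical axis) against that in WT (horizontal axis) for the 63 tested members, by gene span. Red points are the 25 members under 10 kb and open points the 38 longer ones. Of these, 14 and 12 lie in the lower left, below 0 in both genotypes, as did 5679 of 16777 genes of any length.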

How the data were processed

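Raw counts per gene and library, as deposited, were tested; per the submitters' processing notes the authors used STAR 2.5.3 and HTSeq 0.6.1p1 with mm10, after bcl2fastq 2.20.0.422 and cutadapt 1.10, and then DESeq2 1.16.1. The deposited table also holds the authors' normalized signal, log2 fold change and p-values, used only where named. No source used here gives the counted feature or strand, so both were tested on the table. Libraries held 17.7 to 22.9 M counts in all. S. pombe genes were kept apart from the mouse genes. Genes were filtered with filterByExpr (minimum count 10) and fitted in edgeR 4.0.16 (R 4.3.3) by the quasi-likelihood test, TMM scaling, WT against KO, with Benjamini-Hochberg adjustment over all 16789 genes and a threshold of 0.05. On simulated counts for that fit, 28.4% of genes changed by 0.5 (log2), 68.7% by 1 and 98.5% by 2 were called, and 0.102% of unchanged genes. Only 200 genes were changed there, against 1355 called in the data, and they were drawn from all tested genes. These rates are therefore not those for the members. The members and lists were chosen with earlier results of these data known. Members named with values were those called, those with an unadjusted p under 0.05, in each complex the 2 most abundant, the 2 highest per kb and the highest and lowest fold change, and Polr2a, Tbp, Taf1 and the Med12 and Med13 paralogs; others are named to complete a role and were chosen after their values were seen. Alternatives were spike-in scaling, RLE factors, DESeq2 1.42.0, limma 3.58.1 voom, 2 other filters, a term for depth pairs, leaving out each library, and, for levels, exon length or the span free of same-strand genes (added after seeing the data). Promoter windows were read from RefSeq, GRCm38.p6.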

Additional observations from a re-analysis of the deposited data

How the results depend on the processing

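With spike-in scaling 0 members (0 higher, 0 lower) and 17 genes in all (1 higher, 16 lower) were called, and the members' median was -0.21. On that scale 1 member had genotypes that did not overlap, against 17.3% of all tested genes. DESeq2 called 0 members (0 higher). Without the low-count filter 3 members (2 higher, 1 lower) and 2460 genes (1260 and 1200) were called, and with the depth-pair term 9 (6 and 3) and 4307 (2214 and 2093). Leaving out 1 library at a time gave 0 to 4 members called (0 to 3 higher, 0 to 1 lower), 0 without WT replicate 1 and 4 without KO replicate 2, and 818 genes (379 higher, 439 lower) without WT replicate 2 to 2824 (1482 and 1342) without KO replicate 2. It gave 38 to 50 members whose genotypes did not overlap, as fewer libraries overlap less often. The share over all genes was not computed for these, so the counts cannot be read as particular to the members. Where an arm has 1 library it is assumed to vary like the other group. Signs reversed with spike-in scaling for Gtf2e2 (-0.17), Gtf2h1 (-0.19), Gtf2h3 (-0.046), Gtf2h5 (-0.15), Med13 (-0.23), Med13l (-0.22), Polr2a (-0.16), Polr2b (-0.051) and Taf1 (-0.23). These spike-in values had wide SEs, such as 0.68 for Gtf2h3 and 0.77 for Polr2b, and so decide no direction. Med13 also reversed with RLE factors (-0.0055), DESeq2 (-0.0055) and a mean of at least 2 CPM (-0.011). Without 1 library, log2 fold changes ran from -0.0083 to 0.13 for Gtf2e2, -0.0044 to 0.11 for Gtf2h1, -0.065 to 0.063 for Med13, -0.049 to 0.077 for Med13l, -0.037 to 0.20 for Polr2a, -0.094 to 0.15 for Taf1 and -0.17 to 0.081 for Tbp; with no change of sign, they ran from 0.057 to 0.34 for Gtf2h3 and 0.095 to 0.28 for Polr2b. The cause of these changes was not tested. The labels pair no libraries and the replicate numbers follow accession order, so the depth-pair term is a pairing by depth, not by the design. At these depths, counts of 71 to 17084 per member and library, with 2 libraries a genotype, limit what a test can call.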
